A study of Mus musculus with 12 samples.

Results

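Rnf43, Znrf3, the R-spondins and their receptors form the switch that sets how many WNT receptors a cell keeps at its surface. The transcripts described here are those of 10 genes of this switch, taken by symbol from the 24054 genes counted in each library: the ubiquitin ligases Rnf43 and Znrf3, the receptors Lgr4, Lgr5 and Lgr6, the ligands Rspo1, Rspo2 and Rspo3, and the WNT co-receptors Lrp5 and Lrp6. All 10 symbols were found, and 9 had enough reads to be tested; Rspo2 did not. Poly(A) RNA of mouse tissue was sequenced in 12 libraries, 4 in each of 3 groups. BTPRZ-T is tumour of the genotype BrafV600E;Tgfbr2-/-;Rnf43-/-/Znrf3-/-;p16 Ink4a-/-, BT-T is tumour of the genotype BrafV600E;Tgfbr2-/-, and N is wild type normal colon, which the series describes as adjacent to the tumours. Both tumour groups thus share the activated kinase allele and the loss of a TGF-beta receptor, and every library carries the strain label NSG, an immunodeficient mouse. The tumours were engrafted, and the series title names edited colonic organoids as their source. Loss of Rnf43, of Znrf3 and of p16 Ink4a always came together, so their effects cannot be told apart. The labels state neither an age nor that replicates of a group are different mice, so p-values measure the spread between these samples, which may be technical.

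In the WNT pathway, secreted WNT proteins bind a Frizzled receptor together with Lrp5 or Lrp6, and beta-catenin then enters the nucleus and acts there with TCF factors. Rnf43 and Znrf3 are membrane proteins that mark Frizzled receptors for removal from the surface, and in the intestinal crypt both are themselves WNT target genes, which makes them a feedback brake. R-spondins bind Lgr4, Lgr5 or Lgr6 together with Rnf43 or Znrf3 and take the ligases away from the surface, which releases the brake; in the gut the R-spondins come mainly from stromal cells, and Lgr5 marks the crypt base stem cells.

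Depth was 15.7M to 26.1M gene reads in each library. Levels are CPM, read counts divided by the TMM-scaled library size, and each ± after a mean CPM is an SD over 4 libraries. Tests are two-sided edgeR quasi-likelihood tests on all 12 libraries, with Benjamini-Hochberg adjustment over 14860 tested genes and a call at an adjusted p under 0.05; fitted log2 fold changes are given ± SE. The epithelial markers Epcam, Cdh1, Krt8, Krt18, Krt19, Cldn7, Elf3 and Vil1 summed to 7711 to 16266 CPM in BTPRZ-T, 8870.3 to 10729 in BT-T and 10481 to 12692 CPM in N, so every library held epithelium. Colonocyte markers summed to 417 to 1533 CPM in BTPRZ-T, 547 to 1933 in BT-T and 2835 to 5759 CPM in N. In bulk tissue, fewer cells of a type and less RNA per cell cannot be told apart. The 3 libraries with the fewest genes having a read were BTPRZ-T replicates 1 and 4 with 14697 and 13450, and N replicate 2 with 14175, against 16131 to 17266 in the others. N replicate 2 was also poor in long transcripts: over 2027 genes with a transcript of at least 6 kb, its level lay a median of 1.69 log2 units below the mean of the other N libraries, and over 2963 genes of at most 2 kb it lay 1.35 above. Within BTPRZ-T, measured in the same way, replicate 1 lay 0.59 below and 0.61 above, and replicate 3 lay 0.59 above and 0.42 below. Ribosomal protein genes took 9.09, 4.65, 3.64 and 5.52% of gene reads in BTPRZ-T replicates 1 to 4, 2.73, 2.17, 2.30 and 1.86% in BT-T, and 1.94, 10.96, 1.59 and 1.64% in N. BTPRZ-T and BT-T did not overlap in this share; BTPRZ-T replicate 1, with the highest share there, had the lowest Rnf43, Lrp5 and Lrp6 levels of its group and replicate 3, with the lowest share, the highest. The part of RNA quality in these levels was not tested. Most of the 10 genes have long transcripts, from 1.83 kb for Rspo1 to 9.37 kb for Lrp6. Member calls that turn on N replicate 2 are given with and without it. Changes of sign are given by library or as a range over the fits without single libraries.

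Rnf43 was the member that stood out. Its transcript rose in BTPRZ-T, the tumours in which the gene was edited, and with it rose Lgr5; no member fell by the test. In BTPRZ-T against N, 2 of 9 tested members were called, both higher, beside 11.8% of all tested genes called, 5.66% higher and 6.18% lower. In BT-T against N, 0 of 9 were called by edgeR, beside 8.57% of all genes (5.67% higher and 2.9% lower), with 2 at an unadjusted p under 0.05, 1 called by limma-voom (Lgr6) and 0 by DESeq2. In BTPRZ-T against BT-T, 0 of 9 were called by edgeR, beside 0.754% of all genes (0.155% higher and 0.599% lower), with 3 at an unadjusted p under 0.05, 0 called by limma-voom and 2 by DESeq2 (Rnf43 and Lgr4). Over all genes DESeq2 called 3048 in BTPRZ-T against N, 2394 in BT-T against N and 1217 between the tumour groups. For edgeR these counts were 1760, 1274 and 112, and for limma-voom 1600, 1314 and 226. Without N replicate 2, edgeR called 4855 genes in BTPRZ-T against N and 2030 in BT-T against N. Without the 3 libraries with the fewest genes it called 5311 and 4359, and also more between the tumour groups, as given further on. Member calls from those fits stand beside these larger counts. The share of all genes at an unadjusted p under 0.05 was not worked out. Such counts, here and for the gene lists below, thus have no background beside them. The comparisons with N share the same 4 normal libraries, and the comparison of the tumour groups is the test of the difference between them.

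**Figure D1:**
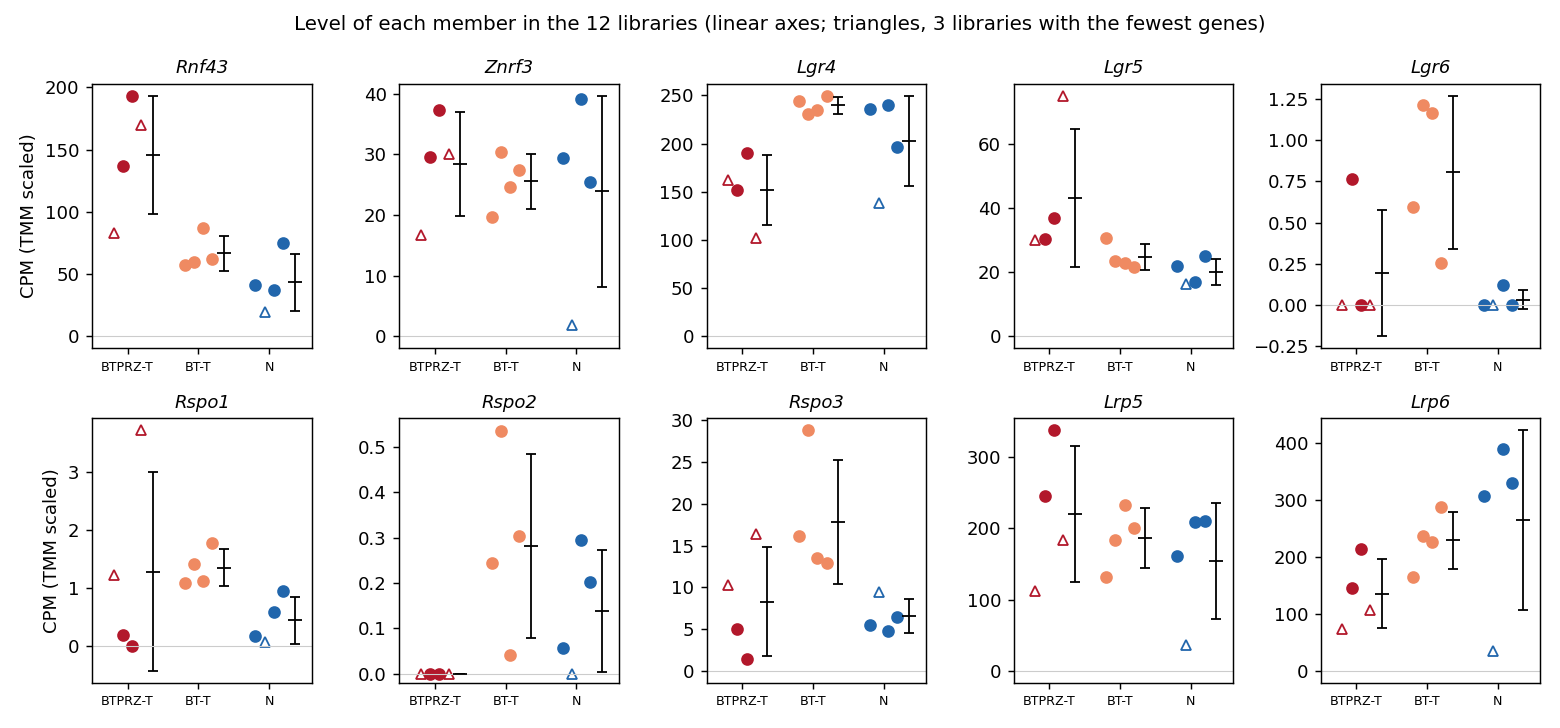
Level of each of the 10 genes in CPM on linear axes, 1 point per library, in BTPRZ-T, BT-T and N, with the mean and SD over 4 libraries beside the points; open triangles are the 3 libraries with the fewest genes. Rnf43 and Lgr5 lie above every N library in all 4 BTPRZ-T libraries, Lgr4 lies below every BT-T library there, and Lrp5, Lrp6 and Znrf3 are low in N replicate 2.

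The ligase gene Rnf43 (ENSMUSG00000034177.15, chromosome 11, 87662722 to 87735539 on the plus strand of GRCm38) had 82.9, 137, 193 and 169.6 CPM in BTPRZ-T replicates 1 to 4, 56.9, 59.8, 87.2 and 62.0 CPM in BT-T, and 41.4, 19.3, 37.3 and 74.6 CPM in N. Every BTPRZ-T library stood above every N library, while the lowest BTPRZ-T library lay below the highest BT-T library. The means were 146 ± 47.7 CPM in BTPRZ-T, 66.5 ± 13.97 CPM in BT-T and 43.1 ± 23.1 CPM in N. Rnf43 rose in BTPRZ-T against N by 1.76 ± 0.38 on the log2 scale (edgeR adjusted p = 0.0112, and 0.00478 without N replicate 2). With only BTPRZ-T and N in the fit the adjusted p was 0.0541, and it stayed under 0.05 when any single library was left out (0.00452 to 0.0391). The difference of BTPRZ-T from BT-T was 1.13 ± 0.37 (adjusted p = 0.160). It was called in 4 of 22 other settings, and in 1 of 12 fits that left out a single library (adjusted p 0.0214 to 0.378). That 1 was the fit without N replicate 2, a library of neither group, and the value stayed at 1.13 there. The difference was also called without the 3 libraries with the fewest genes (1.30, adjusted p = 0.0109). That fit keeps only BTPRZ-T replicates 2 and 3 of their group. It drops BTPRZ-T replicate 1, the library of that group that lay below the highest BT-T library. In BT-T against N the value was 0.62 ± 0.37 (adjusted p = 0.329). Reads were counted over the whole gene, so the level does not show whether an edit is present or whether the RNA codes for a working ligase.

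The RefSeq promoter table matched 4 of the 10 members. It gives Rnf43 2 transcription starts in GRCm38.p6, 36810 bases apart, which gene counts cannot separate. The 250 bases before each RefSeq start are shown, since Rnf43 carries the clearest change among these genes. Both stretches lie inside the gene span given above, which begins at 87662722. The bases before that position are not shown, so the counts below do not cover them. They are the plus strand of chr11:87662837-87663086 and chr11:87699647-87699896, in lower case with each CpG in capitals.
Rnf43 upstream start: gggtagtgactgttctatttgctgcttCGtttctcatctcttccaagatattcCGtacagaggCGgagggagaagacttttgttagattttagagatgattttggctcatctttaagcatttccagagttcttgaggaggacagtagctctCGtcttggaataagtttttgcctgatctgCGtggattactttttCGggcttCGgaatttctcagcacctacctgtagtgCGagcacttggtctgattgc
Rnf43 downstream start: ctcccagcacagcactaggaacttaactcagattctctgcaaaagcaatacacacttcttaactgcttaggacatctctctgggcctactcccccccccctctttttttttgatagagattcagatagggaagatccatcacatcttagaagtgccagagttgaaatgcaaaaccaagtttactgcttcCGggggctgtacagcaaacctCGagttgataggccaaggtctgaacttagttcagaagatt
The upstream stretch holds 8 CpG and the downstream one 2, beside a median of 6 over 32851 RefSeq promoter stretches of this length. The letters CTTTGAT and CTTTGAA, forms of the TCF motif searched on both strands, are in neither stretch; they are in 3.21% and 4.46% of the 32851 stretches.

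Znrf3, the second ligase (ENSMUSG00000041961.14, chromosome 11, 5276324 to 5444847, minus strand), was called in no comparison. It stood at 16.7, 29.6, 37.3 and 30.1 CPM in BTPRZ-T, 19.7, 30.4, 24.6 and 27.5 CPM in BT-T, and 29.4, 1.90, 39.1 and 25.4 CPM in N. The groups overlapped throughout, with N replicate 2 at 6.06% of the mean of the other N libraries. The log2 fold change was 0.25 ± 0.59 in BTPRZ-T against N (edgeR adjusted p = 0.859), 0.094 ± 0.59 in BT-T against N (adjusted p = 0.949) and 0.15 ± 0.59 in BTPRZ-T against BT-T (adjusted p = 0.905). Without N replicate 2 both differences from N were below 0, at -0.14 (adjusted p = 0.711) and -0.29 (adjusted p = 0.566), with SE of 0.27 and 0.26.

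Among the receptors, Lgr5 (ENSMUSG00000020140.15, chromosome 10, 115450311 to 115587780, minus strand), the stem cell receptor for R-spondins, had 30.1, 30.5, 37.0 and 75.2 CPM in BTPRZ-T, 30.8, 23.4, 23.0 and 21.7 CPM in BT-T, and 21.8, 16.4, 17.0 and 25.04 CPM in N. All BTPRZ-T libraries lay above all N libraries, and BTPRZ-T replicate 4 stood far above the other 3. Lgr5 averaged 43.2 ± 21.6 CPM in BTPRZ-T, 24.7 ± 4.13 CPM in BT-T and 20.1 ± 4.11 CPM in N. It rose in BTPRZ-T against N by 1.11 ± 0.31 on the log2 scale (edgeR adjusted p = 0.0377). The call is a narrow one. Leaving out BTPRZ-T replicate 4 ended it, at 0.71 and an adjusted p of 0.0671. So did leaving out N replicate 1 (1.15, with an adjusted p of 0.0776), N replicate 3 (1.03, with 0.101) or any 1 of BT-T replicates 1 to 4 (1.11 each, with 0.0511 to 0.0589). Without N replicate 2 it held (1.02, with 0.0294). It was also lost by limma-voom (1.03, adjusted p = 0.0565) and with only BTPRZ-T and N in the fit (1.11, adjusted p = 0.133). Without the 3 libraries with the fewest genes, which include BTPRZ-T replicate 4, it was 0.72 (adjusted p = 0.0204). Against BT-T the value was 0.80 ± 0.31 (adjusted p = 0.215), and for BT-T against N it was 0.30 ± 0.31 (adjusted p = 0.603). Set against the summed epithelial markers, Lgr5 came to 2.43, 1.94, 2.28 and 9.76 CPM per 1000 CPM of epithelial markers in BTPRZ-T, 2.13 to 2.87 in BT-T and 1.29 to 2.16 in N. On that measure BTPRZ-T replicates 1 and 3 lay within the BT-T range and replicate 2 below it, while replicate 4, with the lowest epithelial sum of all, lay alone.

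Lgr4 (ENSMUSG00000050199.13, chromosome 2, 109917647 to 110014257, plus strand), the most broadly expressed of the LGR receptors, was lowest in BTPRZ-T. It had 162, 152, 190.0 and 102 CPM in BTPRZ-T, 245, 230.4, 235 and 249.1 CPM in BT-T, and 236, 139, 239.7 and 197 CPM in N. All 4 BTPRZ-T libraries lay below the BT-T range, which was tight. Lgr4 was the 1 tested member whose libraries did not overlap between the tumour groups, beside 24.2% of all tested genes. The log2 fold change in BTPRZ-T against BT-T was -0.66 ± 0.24 (edgeR adjusted p = 0.195), and -0.66 with an adjusted p of 0.0280 without N replicate 2. This difference was called in 4 of 22 other settings, and in 1 of 12 fits that left out a single library (adjusted p 0.0280 to 0.419). Against N the log2 fold change was -0.42 ± 0.24 in BTPRZ-T (adjusted p = 0.313, and -0.57 with 0.0421 without N replicate 2) and 0.24 ± 0.24 in BT-T (adjusted p = 0.595).

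Lgr6 (chromosome 1, 134983301 to 135105276) was barely detected. It had 0, 16, 0 and 0 reads in BTPRZ-T replicates 1 to 4, 17, 25, 28 and 5 reads in BT-T, and 0, 0, 2 and 0 reads in N. All 4 BT-T libraries lay above all N libraries, and the BTPRZ-T reads came from replicate 2 alone. Summed over the groups, the ratio of BT-T to N was 25.8, with a 95% exact counting interval of 6.89 to 217, and the ratio of BTPRZ-T to BT-T was 0.256 (0.139 to 0.444); these intervals cover counting error only. By edgeR, which takes the spread between libraries into account, Lgr6 was not called in BT-T against N (adjusted p = 0.129), and limma-voom called it (adjusted p = 0.0462).

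Of the 3 R-spondin members, Rspo3 had the highest mean level in every group. Rspo3 (ENSMUSG00000019880.10, chromosome 10, 29452416 to 29535867, minus strand) had 10.3, 5.03, 1.43 and 16.4 CPM in BTPRZ-T, 16.1, 28.8, 13.4 and 12.9 CPM in BT-T, and 5.47, 9.48, 4.79 and 6.48 CPM in N. Every BT-T library was above every N library, while the BTPRZ-T libraries ran from below the N range into the BT-T range. Means were 8.30 ± 6.53 CPM in BTPRZ-T, 17.8 ± 7.45 CPM in BT-T and 6.55 ± 2.07 CPM in N. The log2 fold change of BT-T against N was 1.44 ± 0.58 (edgeR adjusted p = 0.151), and it was called with these 2 groups alone in the fit (1.49, adjusted p = 0.0345) and without the 3 libraries with the fewest genes (1.74, adjusted p = 0.0140). For BTPRZ-T against N it was 0.34 ± 0.57 (adjusted p = 0.784), and the sign turned without BTPRZ-T replicate 4 (-0.22, adjusted p = 0.883). Against BT-T it was -1.10 ± 0.58 in BTPRZ-T (adjusted p = 0.343). Without the 3 libraries with the fewest genes, which leaves BTPRZ-T replicates 2 and 3, this difference was -2.43 ± 0.53 (adjusted p = 0.0120).

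The 7 fibroblast markers summed to 3554, 2871, 1755 and 8066 CPM in BTPRZ-T replicates 1 to 4, 8170.4, 11902, 11562 and 16318 CPM in BT-T, and 1088, 1397, 1585 and 1854 CPM in N. Within BTPRZ-T, Rspo3 was lowest in the library with the lowest fibroblast sum and highest in the one with the highest. This order was not particular to fibroblasts. Smooth muscle sums were 3270.5, 1405, 430 and 4722 CPM, and macrophage sums 805, 439, 242 and 2384.5 CPM, in BTPRZ-T replicates 1 to 4. Sums of endothelial, lymphatic, neuron and glia, and adipocyte markers were also lowest in replicate 3 and highest in replicate 4. The crypt-base stroma sum was highest in replicate 1. Within BT-T this order did not hold: replicate 4, with the highest fibroblast sum, had the lowest Rspo3 level, and replicates 2 and 3, with near equal sums, had the highest level and one near the lowest. Of the fibroblast markers 3 of 7 were called higher in BTPRZ-T and 5 of 7 in BT-T, each against N. The list had medians of 1.17 and 2.73 log2 units beside -0.10 and -0.097 over all tested genes. Per 1000 CPM of fibroblast markers, Rspo3 came to 0.816 to 2.905 CPM in BTPRZ-T, 0.789 to 2.42 in BT-T and 3.02 to 6.78 CPM in N, which is lower in the tumours. Per 1000 CPM of smooth muscle markers the order was the opposite, with 3.157 to 3.58 CPM in BTPRZ-T, 2.51 to 5.09 in BT-T and 0.360 to 0.803 CPM in N. Grem1, Cd34, Ackr4 and Pdpn, markers of the stroma around the crypt base, summed to 59.8 to 271 CPM in BTPRZ-T, 363 to 579.7 in BT-T and 71.2 to 138 CPM in N, and of the 4, edgeR called 2 higher in BT-T against N, Grem1 and Cd34. Ackr4 lay the other way, at 1.51 to 6.89 CPM in BT-T against 7.14 to 12.9 CPM in N, which edgeR did not call and DESeq2 did. Of the 4 lymphatic endothelial markers, 1 was at 0 reads in every group, and the sums were 16.4 to 55.3 CPM in BTPRZ-T, 51.0 to 84.0 in BT-T and 27.7 to 66.0 CPM in N. The part of these cells in the Rspo3 levels was not tested.

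**Figure D2:**
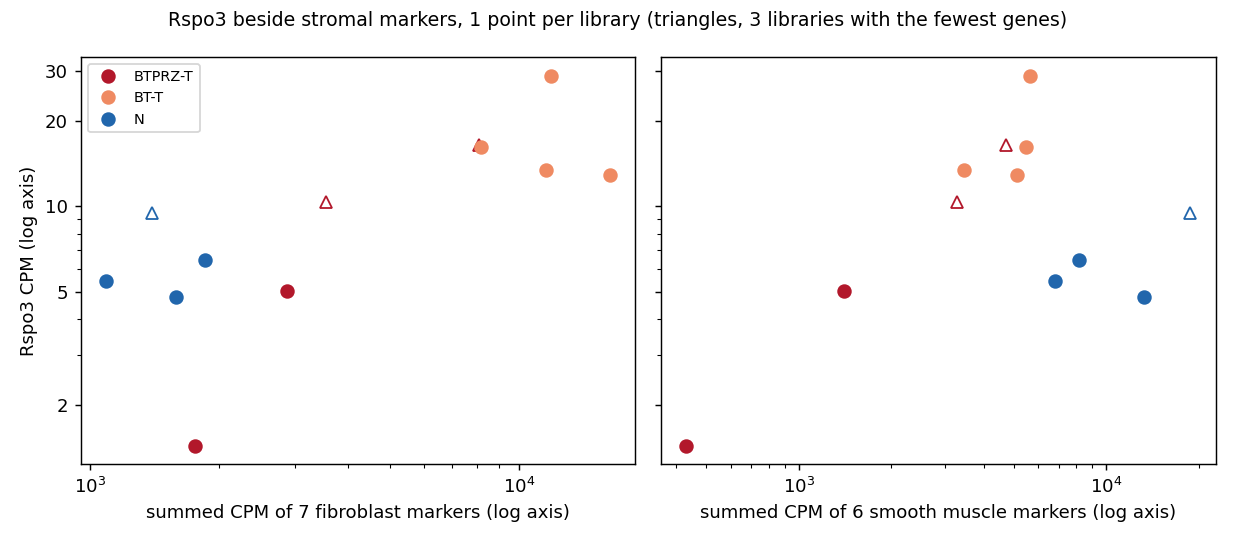
Rspo3 CPM against the summed CPM of 7 fibroblast markers (left) and of 6 smooth muscle markers (right), both on log axes, 1 point per library; open triangles are the 3 libraries with the fewest genes. On the left, BT-T lies to the upper right of N and the 4 BTPRZ-T libraries spread from 1.43 to 16.4 CPM of Rspo3 as the fibroblast sum runs from 1755 to 8066 CPM; on the right, N has the highest marker sums at 4.79 to 9.48 CPM of Rspo3.

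Rspo1 (chromosome 4, 124986430 to 125009099) had 19, 4, 0 and 85 reads in BTPRZ-T, 31, 29, 27 and 35 reads in BT-T, and 3, 1, 10 and 14 reads in N. BT-T was even and above all N libraries, whereas 1 BTPRZ-T library held most of that group's reads. In CPM these were 0 to 3.71 in BTPRZ-T, 1.08 to 1.77 in BT-T and 0.0677 to 0.945 in N, and edgeR called no difference (1.52 ± 1.20, adjusted p = 0.487 for BTPRZ-T against N; 1.59 ± 1.20, adjusted p = 0.453 for BT-T against N). In BTPRZ-T against BT-T, Rspo1 stood at -0.065 ± 1.15 (adjusted p = 0.979) with all libraries. Without the 3 libraries with the fewest genes it was -3.65 ± 0.95 (adjusted p = 0.0214). That fit drops the BTPRZ-T libraries with 19 and 85 reads and keeps those with 4 and 0, so its value rests on which libraries were left out. Rspo2 (chromosome 15, 43020794 to 43170826) had 0 reads in all 4 BTPRZ-T libraries, 7, 11, 1 and 6 reads in BT-T, and 1, 0, 5 and 3 reads in N. With 3 reads over the group taken as the limit that a count of 0 allows, the pooled BT-T level was 6.94-fold the BTPRZ-T limit. The pooled N level was 3.64-fold that limit. These values take the 25 reads of BT-T and the 9 of N as exact and leave out the spread between libraries. They are thus not lower bounds, and no test was made. Rspo4, the fourth R-spondin gene, had 0, 2, 11 and 0 reads in BTPRZ-T, 0, 0, 2 and 0 reads in BT-T and 0 in every N library.

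In all, 2 members lay apart from N in every BTPRZ-T library (Rnf43 and Lgr5) and 3 in every BT-T library (Lgr6, Rspo1 and Rspo3), beside 14.5% and 22.4% of all tested genes in those comparisons. These counts of 2 and 3 of the 9 tested members are small, and no test of them was made.

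Lrp5 and Lrp6, the paired co-receptors, were not called in the main edgeR fit of all libraries, in which the length trend was kept. Lrp5 (ENSMUSG00000024913.16, chromosome 19, 3584828 to 3686564, minus strand) had 112, 246, 338 and 184 CPM in BTPRZ-T, 131, 184, 232 and 200.4 CPM in BT-T, and 161, 36.5, 209 and 210.1 CPM in N. Lrp6 (ENSMUSG00000030201.15, chromosome 6, 134446476 to 134566965, minus strand) had 72.8, 146, 214 and 107 CPM in BTPRZ-T, 165, 236, 225 and 288 CPM in BT-T, and 306, 33.9, 388 and 328 CPM in N. In N replicate 2 both were far below the other N libraries, at 18.9% of their mean for Lrp5 and 9.95% for Lrp6. In that fit, the log2 fold change of Lrp5 in BTPRZ-T against N was 0.51 ± 0.47 (edgeR adjusted p = 0.566) and that of Lrp6 was -0.97 ± 0.56 (adjusted p = 0.316). In BT-T against N Lrp5 was 0.28 ± 0.47 (adjusted p = 0.781), and ran from -0.051 to 0.46 without single libraries. Without N replicate 2, Lrp6 was called lower in BTPRZ-T against N (-1.34 ± 0.31, adjusted p = 0.00765), among 4855 genes called in that fit. Every BTPRZ-T library then lay below every N library. Lrp6 was -0.58 ± 0.31 in BT-T against N there (adjusted p = 0.273). Lrp5 was 0.18 ± 0.32 in BTPRZ-T against N in the same fit (adjusted p = 0.677). With the trend on transcript length removed, Lrp5 was called higher in BTPRZ-T against N (0.83 ± 0.20, adjusted p = 0.0129) and Lrp6 was not called (-0.55 ± 0.28, adjusted p = 0.213). In that comparison Lrp5 was called in 1 of 22 other settings and Lrp6 in 2.

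**Figure D3:**
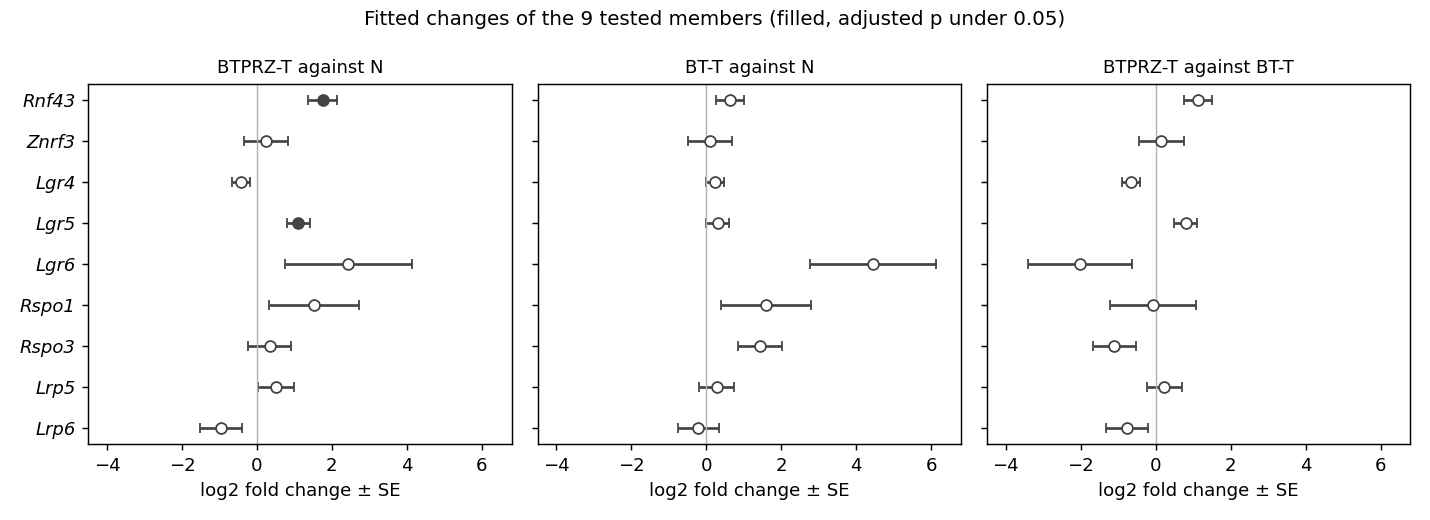
Fitted log2 fold changes with their SE for the 9 tested genes for each tumour group against N and for BTPRZ-T against BT-T; filled points have an adjusted p under 0.05. Rnf43 (1.76) and Lgr5 (1.11) in BTPRZ-T against N are the filled points, and the widest bars are those of Lgr6 and Rspo1.

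The ratio of reads between partner genes within 1 library does not depend on the scaling of libraries. These ratios were chosen after their values were seen and carry no test. Lrp5 and Lrp6 have transcripts of near equal length, 8.89 and 9.37 kb. Their reads stood at a ratio of 1.54, 1.69, 1.58 and 1.72 in BTPRZ-T, 0.794, 0.777, 1.03 and 0.697 in BT-T, and 0.527, 1.08, 0.539 and 0.640 in N. Lrp5 reads outnumbered Lrp6 reads in every BTPRZ-T library, and all 4 ratios lay above every BT-T and N library, N replicate 2 included. That library, poor in long transcripts, had the highest ratio in N, at 1.08. Within BTPRZ-T, replicate 1, with the largest ribosomal protein share there, had the lowest ratio. The part of RNA quality in this ratio was not tested. Rnf43 and Znrf3 reads stood at a ratio of 4.96, 4.63, 5.17 and 5.64 in BTPRZ-T, 2.89, 1.97, 3.54 and 2.25 in BT-T, and 1.41, 10.2, 0.953 and 2.94 in N. The 4 BTPRZ-T libraries lay close together above all BT-T libraries, and N replicate 2, with 28 reads of Znrf3, stood above all. For Lgr4 and Lgr5 the ratio was 5.38, 4.98, 5.13 and 1.36 in BTPRZ-T, 7.93 to 11.5 in BT-T and 7.87 to 14.1 in N, so that each BTPRZ-T library lay below every other library.

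**Figure D4:**
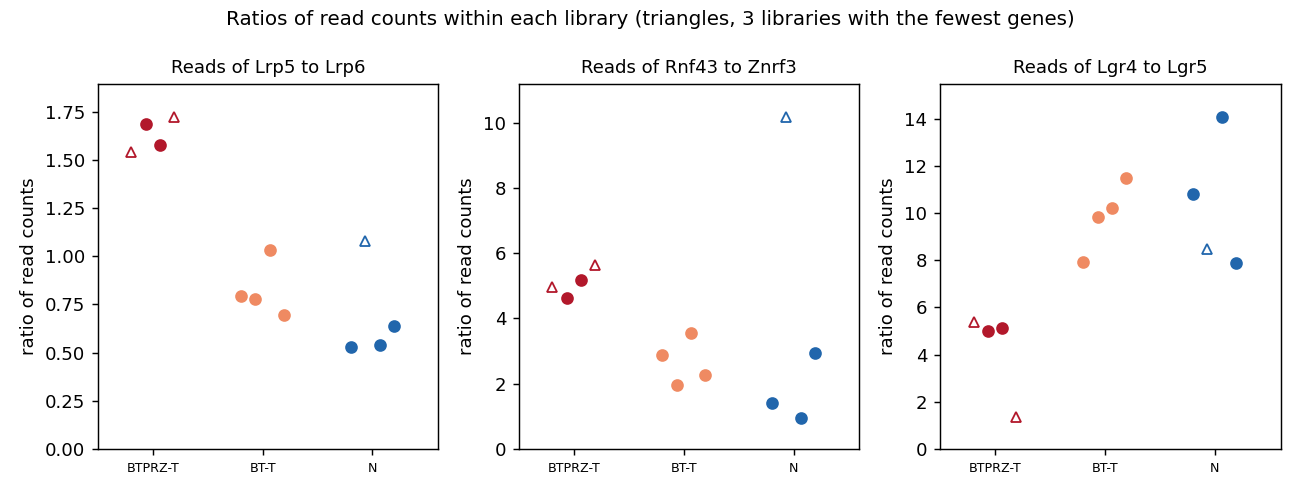
Ratio of read counts within each library for Lrp5 to Lrp6, Rnf43 to Znrf3 and Lgr4 to Lgr5, 1 point per library in BTPRZ-T, BT-T and N, on linear axes from 0; open triangles are the 3 libraries with the fewest genes. For Lrp5 to Lrp6, BTPRZ-T lies at 1.54 to 1.72, above BT-T at 0.697 to 1.03 and N at 0.527 to 1.08.

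Per length, as CPM per kb of the longest transcript, the order of the 10 genes differed between the groups. In BTPRZ-T, Rnf43 had the highest mean with 33.8 ± 11.1 CPM per kb, then Lgr4 with 29.9 ± 7.22, Lrp5 with 24.7 ± 10.8 and Lrp6 with 14.4 ± 6.48. The ranges of Rnf43, Lgr4 and Lrp5 over the libraries overlapped. Within each BTPRZ-T library Rnf43 stood above Lrp5, while the order of Rnf43 and Lgr4 differed between libraries. BT-T had Lgr4 first with 47.4 ± 1.70, then Lrp6 with 24.4 ± 5.36, Lrp5 with 21.0 ± 4.75 and Rnf43 with 15.4 ± 3.24; Lgr4 stood above the other 3 in all libraries. N gave the same order as BT-T for these 4, with Lgr4 at 40.1 ± 9.28, Lrp6 at 28.2 ± 16.8, Lrp5 at 17.4 ± 9.19 and Rnf43 at 10.01 ± 5.35, and neighbours in that order overlapped. Lgr5 and Znrf3 averaged less in every group, with 9.01 and 4.505 CPM per kb in BTPRZ-T, 5.16 and 4.05 in BT-T and 4.19 and 3.79 in N. Rspo3 stood at 2.69 ± 2.12 in BTPRZ-T, 5.77 ± 2.42 in BT-T and 2.12 ± 0.671 in N, and Rspo1, Rspo2 and Lgr6 were below 1 on average in all groups.

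Frizzled receptors are what Rnf43 and Znrf3 act on. Of 14 genes of Frizzled receptors and WNT co-receptors, all tested, 2 rose and 1 fell in BTPRZ-T against N, 3 rose and 1 fell in BT-T against N, and 0 were called by edgeR between the tumour groups, where 6 had an unadjusted p under 0.05, 5 were called by DESeq2 and 1 by limma-voom. The median log2 fold changes were -0.16, 0.27 and -0.49 in that order, beside -0.10, -0.097 and -0.026 over all tested genes. Fzd1 stood at 80.2 to 127 CPM in BTPRZ-T, 144 to 219 in BT-T and 31.9 to 37.3 CPM in N, with no overlap between any pair of groups. It rose by 1.54 ± 0.22 in BTPRZ-T (edgeR adjusted p = 0.000983) and by 2.49 ± 0.22 in BT-T (adjusted p = 0.000185), each against N, and the difference between the tumour groups was -0.95 ± 0.21 (adjusted p = 0.0651). Fzd10 rose by 2.78 ± 0.40 in BTPRZ-T (adjusted p = 0.00122) and by 3.13 ± 0.41 in BT-T (adjusted p = 0.000850), each against N. The co-receptor kinase-like gene Ptk7 rose in BT-T against N (1.48 ± 0.26, adjusted p = 0.00387). Of the genes that fell, Fzd8 in BTPRZ-T (-2.05 ± 0.55, adjusted p = 0.0300) lost its call without any 1 of BTPRZ-T replicates 1, 3 and 4 and N replicates 1, 3 and 4 (adjusted p 0.0624 to 0.0784). Fzd8 also lost its call by limma-voom and with only both groups in the fit. Fzd9 in BT-T (-3.65 ± 0.98, adjusted p = 0.0386) lost it without any 1 of 7 libraries, BTPRZ-T replicate 2, BT-T replicates 1, 2 and 4 and N replicates 1, 3 and 4 (adjusted p 0.0549 to 0.121), and was -4.71 without BT-T replicate 3 (adjusted p = 0.0298).

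Downstream of the receptors, 0 of 13 genes of the cytoplasmic relay, among them Dvl1, Gsk3b and Ctnnb1, were called by edgeR in any comparison. For BTPRZ-T against N 2 had an unadjusted p under 0.05, and DESeq2 called both, Csnk1e and the tankyrase gene Tnks2 (edgeR 0.65 ± 0.22, adjusted p = 0.0721). In BT-T against N it was 1, Csnk1e, again called by DESeq2, and between the tumour groups 0, while limma-voom called 0 in each comparison. Of 8 TCF factors and cofactors, 1 rose and 1 fell in BTPRZ-T against N and 0 were called in BT-T against N by edgeR, DESeq2 or limma-voom, with 0 at an unadjusted p under 0.05. Between the tumour groups edgeR and limma-voom called 0 and DESeq2 called 1, Tcf7l1, the gene with an unadjusted p under 0.05. Tcf7, a TCF factor that is itself a WNT target, rose by 1.73 ± 0.42 (edgeR adjusted p = 0.0192, and over 0.05 with only both groups in the fit) and Tcf7l1, which mostly acts as a repressor, fell by 1.75 ± 0.31 (adjusted p = 0.00366).

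Of the 14 WNT target genes, the BTPRZ-T against N test called 5 higher and 1 lower, and in BT-T against N 1 rose, the cyclin gene Ccnd1 (1.29, edgeR adjusted p = 0.0334). The Ccnd1 call was lost without any 1 of BT-T replicates 2, 3 and 4 and N replicates 1 and 4 (adjusted p 0.0608 to 0.0983) and with only both groups in the fit. Between the tumour groups edgeR called 0, with 5 at an unadjusted p under 0.05, while DESeq2 called 4 and limma-voom 2. The median log2 fold changes were 0.35, 0.19 and 0.48 in that order, beside -0.10, -0.097 and -0.026 over all tested genes. The transcription factor Sp5 rose in BTPRZ-T against N by 5.11 ± 0.89 (edgeR adjusted p = 0.00335, and 4.498 with 0.00614 without BTPRZ-T replicate 4) and the surface protein Cd44 by 1.51 ± 0.28 (adjusted p = 0.00415). The protease Mmp7 rose by 7.12 ± 1.71 (adjusted p = 0.0185, and 0.0565 and 0.0582 without N replicates 1 and 3). Without N replicate 2, at 38.0 CPM of Mmp7 the highest N library, it was 8.60 (adjusted p = 0.00600). Nkd1, a feedback inhibitor, fell by 2.08 ± 0.45 (adjusted p = 0.0107, and over 0.05 with only both groups in the fit), with 2.75 to 16.6 CPM in BTPRZ-T, 23.4 to 39.0 in BT-T and 29.6 to 50.04 CPM in N. Axin2, the feedback scaffold often read as a measure of WNT output, stood at 40.1, 60.6, 58.6 and 78.9 CPM in BTPRZ-T, 38.6, 35.5, 43.6 and 37.2 CPM in BT-T, and 70.5, 21.05, 89.98 and 74.4 CPM in N. It overlapped between BTPRZ-T and N and, of the BTPRZ-T libraries, replicates 2, 3 and 4 lay above all BT-T libraries. Notum, a secreted WNT inhibitor, had 1.16 to 3.67 CPM in BTPRZ-T, 0.557 to 1.499 in BT-T and 0.945 to 6.70 CPM in N.

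Among 10 crypt stem markers beside Lgr5, 2 rose and 1 fell in BTPRZ-T against N, 1 rose in BT-T against N (Smoc2) and edgeR and limma-voom called 0 between the tumour groups, where 6 had an unadjusted p under 0.05 and DESeq2 called 1 (Olfm4). Smoc2 rose by 2.25 ± 0.32 in BTPRZ-T against N (edgeR adjusted p = 0.00116) and Olfm4 by 6.75 ± 1.44 (adjusted p = 0.0104). In BT-T against N Smoc2 rose by 1.43 ± 0.31 (adjusted p = 0.0141). That call was lost without BT-T replicate 2 or N replicate 1 (adjusted p 0.0501 to 0.0507). Olfm4 levels were 0.606 to 5.81 CPM in BTPRZ-T, 0 to 1.25 in BT-T and 0 to 0.0591 CPM in N. Rgmb, a co-receptor of BMP signals, fell in BTPRZ-T against N by 1.45 ± 0.37 (adjusted p = 0.0238, and 0.0572 to 0.0730 without BTPRZ-T replicates 1 or 2 or N replicates 1 or 3). The Rgmb call was also lost by limma-voom and with only both groups in the fit. Ascl2, the factor that keeps the Lgr5 stem cell state, had 1.21 to 9.43 CPM in BTPRZ-T, 3.54 to 5.83 in BT-T and 3.93 to 10.6 CPM in N, with overlap between all groups.

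Over all 12 libraries, the tested genes whose log2 CPM profile lay nearest to that of Rnf43, by the root mean square difference after centring, were Etv4 (0.31 log2 units), Tcf7 (0.32), Myc (0.36), AA986860 (0.37) and Rrp1b (0.38), where the profile of Rnf43 itself had a root mean square of 0.91. Etv4 is a transcription factor induced by the RAS and ERK cascade. Etv4 averaged 88.3 CPM in BTPRZ-T, 45.7 CPM in BT-T and 24.4 CPM in N. For Lgr5, with a root mean square of 0.56, the nearest genes were Zfp1 (0.19), Acbd6 (0.23), Clk2 (0.25), Polr3e (0.25) and Slc19a1 (0.26). All profiles share the same libraries and their depth and length trends, and likeness of profile says nothing on shared control.

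**Figure D5:**
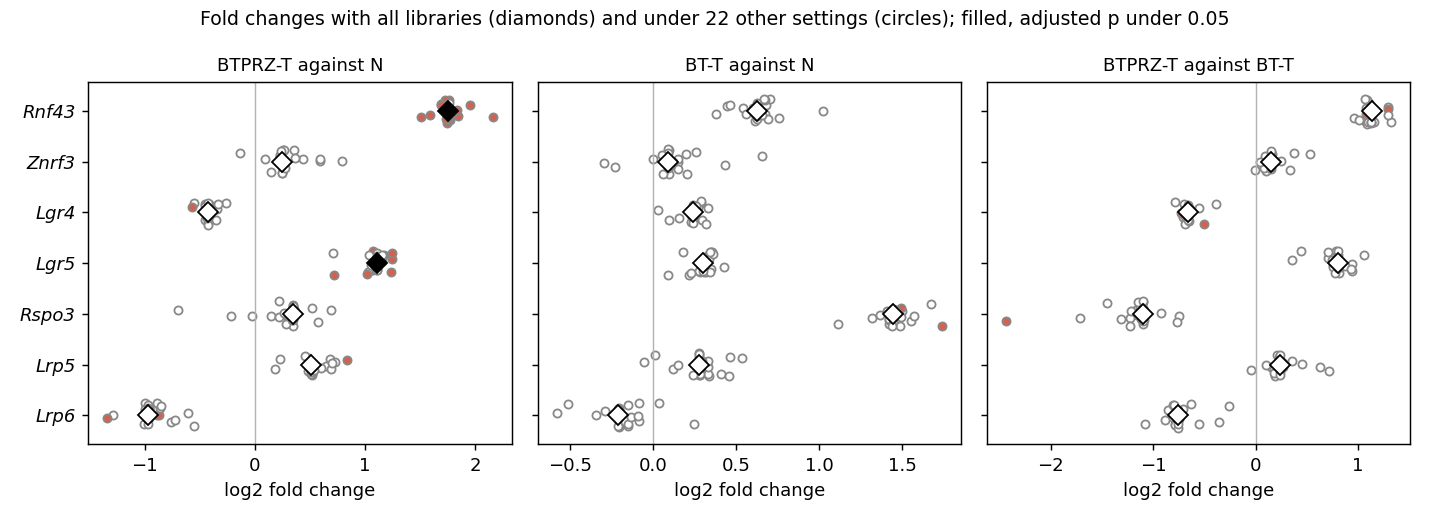
Log2 fold changes of 7 genes with all libraries (black diamonds) and under 22 other settings (circles), for each tumour group against N and for BTPRZ-T against BT-T; filled symbols have an adjusted p under 0.05 and heights within a row are jittered. Rnf43 in BTPRZ-T against N stays between 1.51 and 2.16 and was called in 21 of 22 settings, while Lgr5 stays between 0.71 and 1.25 and was called in 12 of 22.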

How the data were processed

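Per the labels' protocols, library preparation used a stranded poly(A) kit and sequencing gave single reads of 100 bases. The tools named, per the submitters' processing notes, are bcl2fastq 2.20, STAR 2.4.2a, edgeR 3.16.5, limma and HTSeq, and the build mm10; settings and annotation are not stated there. Deposited files hold raw counts of reads per gene, not normalized by the authors, in the layout of STAR gene counts; the count of reads at several loci is 0 in each file. The stranded column with more gene reads (column 4) was used; column 3 had 0.819 to 0.994% of that number. Rows for reads outside genes or ambiguous (13.1 to 18.7% of mapped reads) were left out.

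Genes were filtered with filterByExpr by group (14860 of 24054 kept), scaled by TMM and fitted in R 4.3.3 by edgeR 4.0.16 (glmQLFit, robust, then glmQLFTest; 1 mean per group, common biological coefficient of variation 0.501). The pipeline was tested on simulated counts. GENCODE M21 (GRCm38) gave positions and transcript lengths by gene symbol. Alternatives were RLE factors, no filter, 2 CPM in 4 libraries, DESeq2 1.42.0, limma-voom (limma 3.58.1), the unstranded column, the compared groups alone, the replicate number as a block, a fit without the length trend, a fit without 3 libraries, and each library left out. The members and lists were chosen with earlier results of these data known. Of each pathway list, up to 4 genes with the lowest adjusted p were named, with Axin2, Nkd1, Notum, Ascl2 and Rspo4 always.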

Additional observations from a re-analysis of the deposited data

Results flagged for a closer look

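In 4 of 29 groups of libraries, 1 library stood apart from the other 3 by Dixon's test of the gap over the range. Chance flags about 1 in 20 groups of continuous values; that rate does not apply to the 2 Lgr6 groups below, where 3 libraries at 0 reads set the result. Lgr5 stood at 75.2 CPM in BTPRZ-T replicate 4, above 30.1 to 37.0 CPM in the other BTPRZ-T libraries. Rnf43 stood at 87.2 CPM in BT-T replicate 3, above 56.9 to 62.0 CPM in the other BT-T libraries. Lgr6 stood at 0.766 CPM in BTPRZ-T replicate 2 and at 0.118 CPM in N replicate 3, with 0 reads in the other libraries of each group.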

How the results depend on the processing

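The count of called genes moved with the setting. In BTPRZ-T against N it was 1760 with all libraries, 3048 by DESeq2, 647 with both groups alone, 1160 with the replicate block, 5311 without the 3 libraries with the fewest genes and 1076 to 4855 without single libraries (4855 without N replicate 2). In BT-T against N it was 1274, 2394 by DESeq2, 4359 without the 3 libraries and 624 to 2030 without single libraries. In BTPRZ-T against BT-T it was 112, 1217 by DESeq2, 226 by limma-voom, 1568 with both groups alone, 1 with the replicate block, 218 with the length trend removed, 3723 without the 3 libraries and 0 to 2714 without single libraries.

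Of the 10 members, 2 were called in BTPRZ-T against N, 1 by limma-voom, 0 with both groups alone, 1 with the replicate block (Lgr5 lost, adjusted p = 0.0637) and 1 to 4 without single libraries. In BT-T against N, 0 were called, 1 by limma-voom, 1 with both groups alone and 2 without the 3 libraries. In BTPRZ-T against BT-T, 0 were called, 2 by DESeq2, 2 with both groups alone, 4 without the 3 libraries (Rnf43, Lgr4, Rspo1 and Rspo3) and 0 to 2 without single libraries. The block changed no other member's call, and of the pathway calls named in the text it ended those of Fzd8, Rgmb, Fzd9, Ccnd1 (BT-T against N) and Sfrp5 (BTPRZ-T against BT-T). The labels do not say that replicate numbers pair samples: same-numbered deviations correlated at 0.0712 to 0.315 between the tumour groups, where every BTPRZ-T library matched its own number best, and at -0.297 to 0.239 against N.

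Signs turned for members that were not called. In BTPRZ-T against N, Rspo1 was -2.34 and Rspo3 -0.70 without the 3 libraries, and Rspo3 -0.026 by limma-voom; without single libraries, Znrf3 ran from -0.14 to 0.59, Lgr6 from -2.53 to 4.99 and Rspo3 from -0.22 to 0.69. In BT-T against N, Znrf3 was -0.23 without the 3 libraries and Lrp6 0.25 by limma-voom; without single libraries, Znrf3 ran from -0.29 to 0.44, Lrp5 from -0.051 to 0.46 and Lrp6 from -0.58 to 0.037. In BTPRZ-T against BT-T, Znrf3 ran from -0.0061 to 0.34, Rspo1 from -1.57 to 0.34 and Lrp5 from -0.049 to 0.45 without single libraries. The causes were not tested. Depth limits Rspo1, Rspo2 and Lgr6, with 0 to 122 reads per group.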

Other observations

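WNT ligands and secreted antagonists are the signals that the receptors described above receive. Of 18 ligand genes, 10 had enough reads to be tested. In BTPRZ-T against N, 3 rose and 1 fell, in BT-T against N 5 rose, and 0 were called by edgeR between the tumour groups, where 3 had an unadjusted p under 0.05, DESeq2 called 2 and limma-voom 1. The median log2 fold changes were 1.40, 1.40 and -0.66 in that order, beside -0.10, -0.097 and -0.026 over all tested genes. Wnt7b rose by 4.17 ± 0.99 on the log2 scale in BTPRZ-T against N (edgeR adjusted p = 0.0174, and over 0.05 with only both groups in the fit) and by 4.86 ± 1.02 in BT-T against N (adjusted p = 0.0112), with 28.0 to 49.9 CPM in BTPRZ-T, 44.6 to 79.5 in BT-T and 0.115 to 7.11 CPM in N. N replicate 2 held 105 of the 117 Wnt7b reads in N, and without it the values were 7.12 in BTPRZ-T (adjusted p = 1.31e-05) and 7.81 in BT-T (adjusted p = 2.21e-05). DESeq2 gave Wnt7b no p-value. Wnt11 rose by 4.42 ± 0.77 in BT-T against N (adjusted p = 0.00410), and by 5.21 without N replicate 4 (adjusted p = 0.00399).

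Of 13 genes of secreted antagonists and their partners, 10 were tested. In BTPRZ-T against N, 2 rose and 1 fell, and in BT-T against N 6 rose. Between the tumour groups edgeR called 1, with 4 at an unadjusted p under 0.05, while DESeq2 called 2 and limma-voom 1. The median log2 fold changes were 1.04, 1.96 and -1.002 in that order. The gene called between the tumour groups was Sfrp5, which fell (-6.22 ± 1.12, edgeR adjusted p = 0.0351), with 1 library at 0.144 CPM and 3 at 0 in BTPRZ-T, 1.29 to 7.80 in BT-T and 1.73 to 3.13 CPM in N. That call was lost without any 1 of 8 libraries, BTPRZ-T replicates 1, 2 and 3, BT-T replicates 1, 2 and 4 and N replicates 1 and 3 (adjusted p 0.0530 to 0.142), with values of -9.00 without BTPRZ-T replicate 2 and -5.36 without BT-T replicate 4. Against N, Sfrp5 fell by 5.74 ± 1.11 in BTPRZ-T (adjusted p = 0.00604), and was -8.52 without BTPRZ-T replicate 2 (adjusted p = 0.00690). Of the 7 fibroblast markers, 3 were called higher in BTPRZ-T and 5 in BT-T, each against N, and their part in these values was not tested.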
